A study of Homo sapiens with 4 samples.

Results

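The mRNAs described here encode the DNA replication machinery, from the proteins that mark origins to those that seal the finished strand. They were chosen by gene symbol alone. The symbols were MCM followed by a number, the origin recognition complex (ORC1 to ORC6), replication factor C and the GINS complex. Numbered subunits of DNA polymerases alpha, delta and epsilon, replication protein A and primase were also taken. Added by name were CDC6, CDC7, CDC45, CDT1, GMNN, PCNA, FEN1, LIG1, RRM1 and RRM2. The rule found 48 genes among the 26490 genes of the table, and it used no measured value. The catalytic subunit of DNA polymerase epsilon is listed as POLE, without a number, and so falls outside the rule.

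DHX36 is a DEAH-box helicase that binds and unwinds G-quadruplexes, structures that guanine-rich RNA or DNA can form. Its RNA contacts were mapped by PAR-CLIP in HEK293 cells, an established human embryonic kidney line, that stably carry a tetracycline-inducible, HA- and FLAG-tagged DHX36. One cell line expressed FH-DHX36, which the labels call isoform 2. The other expressed FH-DHX36-E335A, a helicase-dead mutant that the labels call isoform 1, so the mutation and the isoform cannot be told apart. There were 2 biological replicates per cell line. All cells were kept under hygromycin B and blasticidin, treated for 15 h with tetracycline at 500 ng per ml to switch on the transgene, fed with 4-thiouridine and exposed to UV light of 365 nm for 5 min. After RNase T1 digestion and FLAG immunoprecipitation, the protected RNA fragments were sequenced. The tagged protein was made from a transgene in cells that keep their own DHX36, and no library of untransfected cells or of input RNA enters the comparison.

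Replication begins when the origin recognition complex, CDC6 and CDT1 load the ring-shaped MCM2 to MCM7 helicase onto DNA. The kinase CDC7, CDC45 and the GINS complex then turn the loaded ring into a moving helicase. DNA polymerases copy both strands, replication factor C places the sliding clamp PCNA, replication protein A covers single strands, and FEN1 and LIG1 process and join the lagging-strand pieces. Ribonucleotide reductase supplies the deoxynucleotides. Many of these genes are transcribed more strongly as cells enter S phase, and cultured HEK293 cells divide rapidly.

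A cluster is a group of overlapping reads with more T-to-C conversions than the caller expects by chance, the mark that crosslinked 4-thiouridine leaves in cDNA. For each gene the table gives the number of clusters, the number of crosslinked reads in them, and NXPM, which is RPM (crosslinked reads per 1000000 crosslinked reads of the PAR-CLIP) divided by mRNA abundance. Clusters are split into 5′ UTR, CDS, 3′ UTR and intron. The remainder, here called other annotation, was obtained by subtracting these from the total. Per the study's pipeline summary such sites include start codons, stop codons, retained introns and processed transcripts. Crosslinked reads sum to 8752127 for FH-DHX36-E335A and 2160413 for FH-DHX36, given as 1 combined value per gene in each cell line. The sources used here do not say whether that value pools both replicates or keeps what they share. There is therefore no replicate spread for any gene, no test between the cell lines was possible, and intervals cover counting error only. DHX36 itself, whose transgene adds to its RNA, had 30909 reads in FH-DHX36-E335A and 19208 in FH-DHX36. Of the markers of HEK293 cells looked up, VIM and INA had clusters in both PAR-CLIPs and KRT8 in FH-DHX36, while KRT18, PAX2 and NEFM had none in either. The leukocyte and liver markers PTPRC, CD3E and ALB had no cluster, which in this table does not show that the RNA is absent.

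The sequences of interest are guanine runs, since DHX36 is known for G-quadruplexes. The pattern searched was 4 runs of at least 2 guanines, separated by loops of 1 to 7 nt, on the sense strand of the canonical transcript. A stricter form asked for at least 3 guanines per run. The following matches lie in 3′ UTR exons, with coordinates on GRCh37, and capitals mark guanine runs. The genes shown were chosen after their values were seen. FEN1, CDT1 and RPA2 had the most FH-DHX36-E335A reads per kb of 3′ UTR, and RFC5 the largest difference between the cell lines. Of the 9 matches in CDT1, 2 are shown.
FEN1, chr11:61564060-61564082, plus strand: GGGGtGGagagaGGattctaaGG
FEN1, chr11:61564327-61564343, plus strand: GGctGGccaactGGtGG
FEN1, chr11:61564349-61564363, plus strand: GGGaGGtgatGGtGG
CDT1, chr16:88874969-88874996, plus strand: GGGGGGccatcGGGagtgtGGctGGGGG
CDT1, chr16:88875001-88875028, plus strand: GGGGGctctgtGGcaatatGGGGttGGG
RPA2, chr1:28218569-28218593, minus strand: GGccaGGGGGcttctaGGaagtaGG
RFC5, chr12:118469216-118469231, plus strand: GGagaGGatGGGcaGG

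The next 3 are 3′ UTR matches of the stricter form, 1 in each of ORC4, POLA2 and POLD1. The last is 1 of the 6 matches in the 3′ UTR of RFC2, which had no cluster in either PAR-CLIP.
ORC4, chr2:148688566-148688587, minus strand: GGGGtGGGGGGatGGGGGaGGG
POLA2, chr11:65065985-65066007, plus strand: GGGcaGGGaagtGGGcaaGGGGG
POLD1, chr19:50921222-50921242, plus strand: GGGGcGGGGGcGGGaccaGGG
RFC2, chr7:73646091-73646101, minus strand: GGaGGtGGaGG

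Nearly all of these mRNAs carried a cluster. In FH-DHX36-E335A, 45 of 48 genes had at least 1 cluster, against 34.5% of all genes in the table and 48.1% of genes with a canonical coding transcript. In FH-DHX36, 33 of 48 had one, against 22.4% and 31.3%. The background includes genes that may not be expressed in these cells, and abundance can be recovered only for genes with a cluster. Among genes with a cluster in FH-DHX36-E335A, the median abundance was 17.3 for the replication mRNAs and 5.89 for all genes, and whether that difference accounts for the counts was not tested.

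All 33 genes bound in FH-DHX36 were also bound in FH-DHX36-E335A, as were 5669 of the 5930 genes bound in FH-DHX36 over the whole table. Clusters in both PAR-CLIPs were listed for 21.4% of all genes. A further 12 had clusters in FH-DHX36-E335A alone, against 13.1% of all genes. Counted over genes bound in FH-DHX36-E335A, that was 12 of 45 members, beside 3462 of 9131 genes in the whole table. The 12 were ORC2, ORC3, CDC6, MCM9, GINS3, GINS4, POLA1, POLD3, PRIM1, PRIM2, RPA1 and RPA3. None had clusters in FH-DHX36 alone, against 0.985%. The 12 genes had a median of 276 FH-DHX36-E335A reads, against 1074 for the 33 bound in both. The range was from 19 for GINS4 to 1387 for POLD3. Without POLD3 the highest was 370, for RPA1. A missing cluster in FH-DHX36, which has the smaller read total, does not show that binding was absent. The part of read depth was not tested. The genes without a cluster in either cell line were POLD4 and POLE4, small accessory polymerase subunits, and RFC2, a subunit of the clamp loader.

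The replication mRNAs held 72087 crosslinked reads in 366 clusters in FH-DHX36-E335A, or 0.824% of all crosslinked reads (95% Wilson interval 0.818 to 0.830). In FH-DHX36 they held 12882 reads in 108 clusters, or 0.596% (0.586 to 0.607). Reads were concentrated on few genes. FEN1 and RFC3 together held 28.9% of the FH-DHX36-E335A reads, and RFC3 and POLD2 held 38.4% of those in FH-DHX36. Across the 33 genes bound in both, the RPM of both cell lines had a Spearman coefficient of 0.758, beside 0.630 over all 5669 genes bound in both. The cell lines share the mRNA abundance behind each point, and the value is given as a description.

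**Figure D1:**
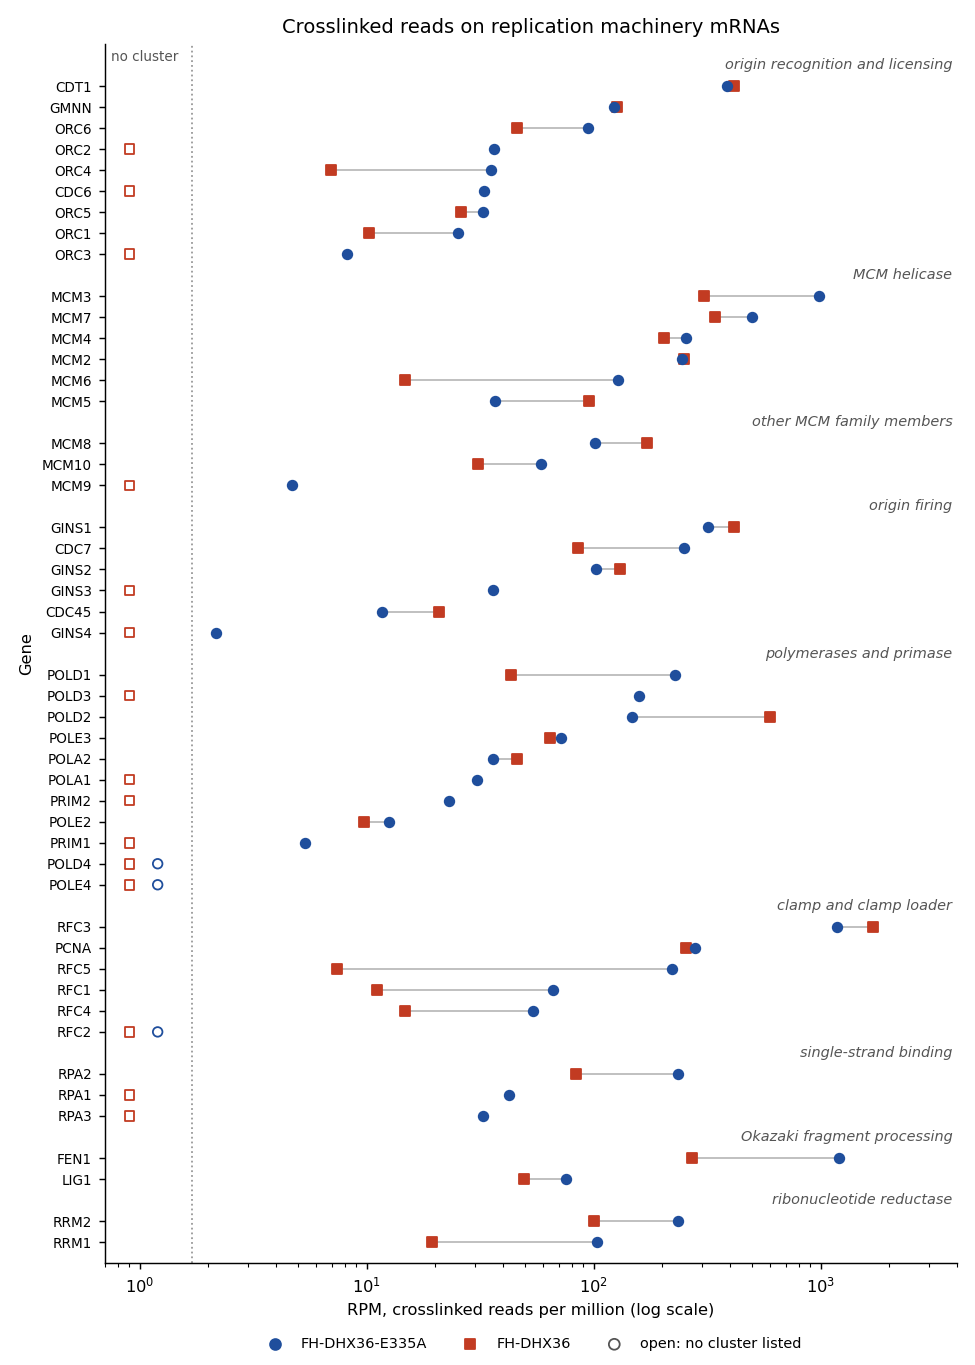
RPM (log axis) for each of the 48 genes, grouped by role, with circles for FH-DHX36-E335A and squares for FH-DHX36. Each symbol is 1 combined value, and open symbols left of the dotted line mark genes with no cluster. FEN1 in FH-DHX36-E335A and RFC3 in FH-DHX36 are farthest to the right.

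Origin recognition and licensing genes were all bound in FH-DHX36-E335A and 6 of 9 in FH-DHX36. The shares of genes with a canonical coding transcript were 48.1% and 31.3%. The 6789 FH-DHX36-E335A reads on these origin genes lay mainly in 3′ UTRs, which held 69.1%. The 1358 FH-DHX36 reads did likewise, with 68.4%. CDT1, which brings the MCM ring to the origin, led the group in both and carried these shares. Without it, 3′ UTRs held 46.5% of the 3391 remaining reads in FH-DHX36-E335A and 34.2% of the 465 in FH-DHX36. CDT1 held 3398 reads in FH-DHX36-E335A, of which 3118 lay in 3 clusters of the 3′ UTR, 169 in other annotation and 111 in the CDS. In FH-DHX36 it held 893 reads, with 770 in 4 clusters of the 3′ UTR, 82 in an intron and 41 in the CDS. On the RPM scale, these were 388 and 413, a ratio of 1.06 (95% exact interval 0.988 to 1.15, counting error only), a difference not detectable against counting error. Its 3′ UTR of 980 nt holds 9 matches to the guanine pattern.

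GMNN encodes geminin, the inhibitor that holds CDT1 back after licensing, and it too had near-equal totals, with 1074 reads in FH-DHX36-E335A and 273 in FH-DHX36 (RPM of 123 and 126). The distribution differed. In FH-DHX36-E335A GMNN had 255 reads in the 5′ UTR, 143 in the CDS, 131 in the 3′ UTR, 40 in introns and 505 in other annotation. In FH-DHX36 it had 228 reads in 2 intronic clusters and 45 in the 3′ UTR. Over exonic classes alone, with 529 against 45 reads, GMNN was 2.93-fold higher in FH-DHX36-E335A.

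Among the origin recognition complex, ORC6 was highest, with 824 reads in FH-DHX36-E335A (705 in the 3′ UTR and 119 in other annotation) against 99 in FH-DHX36, all in the 3′ UTR. That is a 2.05-fold difference in RPM, with an interval of 1.67 to 2.56 that reaches below 2. ORC1 had 221 reads, spread over the 5′ UTR (77), CDS (18), 3′ UTR (33) and other annotation (93), against 22 reads in the 5′ UTR in FH-DHX36, which is 2.48-fold (1.60 to 4.04). For ORC4, 309 reads, with 183 in the 3′ UTR, 55 in other annotation and 71 in the CDS, stood against 15 in the 3′ UTR, or 5.08-fold (3.04 to 9.20). Each of these 3 genes was higher in FH-DHX36-E335A over all reads, from few FH-DHX36 reads. Over exonic reads alone, ORC1 (1.45-fold) and ORC6 (1.77-fold) were under 2-fold and ORC4 was 4.22-fold. ORC4 has the longest 3′ UTR of the set, at 5114 nt, and carries a match of the stricter guanine form.

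ORC5 had 286 reads in FH-DHX36-E335A, with 124 in the 3′ UTR, 73 in an intron, 58 in the CDS and 31 in other annotation, and 56 in FH-DHX36, all in an intron. ORC2 and ORC3 were bound in FH-DHX36-E335A alone, with 317 reads, all in the 3′ UTR, and 72 reads, 22 in the 3′ UTR and 50 in the CDS. CDC6, which recruits CDT1 together with the origin recognition complex, had 288 reads in FH-DHX36-E335A. They fell on the 5′ UTR (153), CDS (74) and 3′ UTR (61). CDC6 was the only member with more than 50% of its FH-DHX36-E335A reads in the 5′ UTR. Its 5′ UTR of 225 nt holds 2 matches to the pattern.

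All 6 subunits of the MCM2 to MCM7 helicase were bound in both PAR-CLIPs, against 21.4% of all genes. They held 18722 reads in FH-DHX36-E335A, or 26.0% of the reads on replication mRNAs, and 2620 in FH-DHX36, or 20.3%. Coding sequence took a larger part here than in the origin genes, with 32.0% of FH-DHX36-E335A reads and 59.2% of FH-DHX36 reads.

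MCM3 was the highest of the 6 in FH-DHX36-E335A, with 8557 reads. Of these, 6616 lay in 3 clusters of other annotation, 1094 in 1 cluster of the 3′ UTR, 84 in an intron and 763 in the CDS. In FH-DHX36 it held 664 reads, with 153 in the CDS, 101 in the 3′ UTR and 410 in other annotation. In both PAR-CLIPs, most MCM3 reads therefore fell outside the annotation classes that have columns. In RPM, MCM3 was 3.18-fold higher in FH-DHX36-E335A (2.94 to 3.45). Counted in exonic classes alone, with 1857 against 254 reads, the difference was 1.82-fold.

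MCM7 had 4350 reads in FH-DHX36-E335A, with 3076 in 10 clusters of the CDS, 1260 in other annotation and 14 in the 5′ UTR. In FH-DHX36, 673 of its 740 reads lay in 10 clusters of the CDS and 67 in the 3′ UTR. MCM7 was thus bound along its coding sequence in both cell lines. Its CDS of 2160 nt holds 7 matches to the guanine pattern and its 3′ UTR of 204 nt holds none. The MCM7 gene hosts microRNAs, and the annotation places an exon overlap with MIR93 on the same strand.

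MCM5 was also bound mainly in coding sequence in both cell lines, and MCM4 was in FH-DHX36. In FH-DHX36-E335A, MCM4 reads were divided almost evenly, with 801 per kb of 3′ UTR and 434 per kb of CDS. MCM4 had 2233 reads in FH-DHX36-E335A, 1107 in the 3′ UTR and 1126 in the CDS, and 442 in FH-DHX36, all in 5 clusters of the CDS. For MCM5, 289 of 323 FH-DHX36-E335A reads lay in the CDS, with 34 in the 3′ UTR, and 172 of 205 lay in the CDS and 33 in an intron in FH-DHX36. MCM5 was 1 of the 2 members with at least 2-fold higher RPM in FH-DHX36, at 2.57-fold (2.15 to 3.07).

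Over all reads, MCM2 was near equality between the cell lines and MCM6 was not. MCM2 had 2140 reads in FH-DHX36-E335A, with 989 in the 3′ UTR, 960 in other annotation and 191 in the CDS. Its FH-DHX36 total was 537, with 413 in the 3′ UTR, 45 in an intron and 79 in the CDS. These are RPM values of 245 and 249, a ratio of 1.02 (0.923 to 1.12). Over exonic reads alone, with 1180 against 492, MCM2 was 1.67-fold higher in FH-DHX36. MCM6 had 1119 reads in 14 clusters in FH-DHX36-E335A, with 545 in the CDS, 280 in an intron, 199 in the 3′ UTR and 95 in other annotation, but 32 reads in 1 cluster of the CDS in FH-DHX36. The difference in RPM was 8.63-fold (6.08 to 12.7). Subunits of the same ring thus ranged from higher in FH-DHX36 to several-fold higher in FH-DHX36-E335A.

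The other genes with an MCM symbol, MCM8, MCM9 and MCM10, are not subunits of that ring. MCM8, which works with MCM9 in recombination, had 883 reads in FH-DHX36-E335A, with 719 in the CDS and 164 in other annotation, and 371 in FH-DHX36, with 357 in 1 cluster of the CDS and 14 in the 5′ UTR. None of the reads on MCM8 lay in its 3′ UTR. In the annotation used here that region is 4586 nt long and holds 9 matches to the guanine pattern. An exon of MCM8 overlaps another protein-coding gene on the same strand. MCM10, a replication initiation factor, had 512 and 67 reads, with 443 and 67 in the 3′ UTR. MCM9 had 41 reads in FH-DHX36-E335A, 19 in the CDS and 22 in introns.

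Genes of origin firing were again bound largely in 3′ UTRs, with 62.3% of 6302 reads in FH-DHX36-E335A and 78.9% of 1409 in FH-DHX36. GINS1 had the most. In FH-DHX36-E335A it held 2783 reads in 21 clusters, with 1758 in 15 clusters of the 3′ UTR, 998 in other annotation and 27 in the CDS. In FH-DHX36 it held 898 reads in 10 clusters, with 762 in 8 clusters of the 3′ UTR, 54 in the 5′ UTR and 82 in the CDS. GINS1 was 1.31-fold higher in FH-DHX36 by RPM (1.21 to 1.41). Its reads were spread over many clusters of a 2572 nt 3′ UTR.

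CDC7, the kinase that activates the loaded helicase, had 2192 reads in FH-DHX36-E335A. They lay in the 3′ UTR (1136), other annotation (519), CDS (490), 5′ UTR (29) and an intron (18). FH-DHX36 gave 185 reads, with 102 in other annotation, 68 in the 3′ UTR and 15 in an intron, a 2.92-fold difference (2.52 to 3.42). The 1329 nt 3′ UTR of CDC7 holds no match to the guanine pattern. GINS2 had 891 reads, 822 of them in the 3′ UTR and 69 in other annotation, and 281 in FH-DHX36, all in the 3′ UTR.

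The remaining firing genes had few reads. CDC45, the helicase partner of MCM and GINS, had 102 reads in FH-DHX36-E335A, with 54 in the CDS, 27 in the 3′ UTR and 21 in other annotation, against 45 in an intron in FH-DHX36. GINS3 had 315 reads, 184 in the 3′ UTR, and GINS4 had 19 in the CDS, both in FH-DHX36-E335A alone. Within a 4-subunit complex whose proteins work together, GINS mRNAs therefore ranged from 19 to 2783 reads. They also differed in recovered abundance, from 3.13 for GINS4 to 79.1 for GINS2.

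Of the polymerase and primase genes, 9 of 11 were bound in FH-DHX36-E335A and 5 of 11 in FH-DHX36. The shares of genes with a canonical coding transcript were 48.1% and 31.3%. POLD1, the catalytic subunit of DNA polymerase delta, had 2005 reads in FH-DHX36-E335A, of which 1900 lay in 2 clusters of other annotation, 91 in the CDS and 14 in an intron. The FH-DHX36 total was 93 reads, 65 in the 3′ UTR and 28 in the CDS. Over all reads POLD1 was 5.32-fold higher in FH-DHX36-E335A (4.32 to 6.62). Over exonic classes, with 91 against 93 reads, it was 4.10-fold higher in FH-DHX36, so the direction for POLD1 rests on the 1900 reads outside those classes. Its 3′ UTR is 67 nt long and holds the strict match printed above. An exon of POLD1 overlaps another protein-coding gene on the same strand, so the gene that these reads belong to is uncertain.

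POLD2, an accessory subunit of the same polymerase, was the member with the largest difference toward FH-DHX36. It had 1287 reads in FH-DHX36-E335A (911 in other annotation, 272 in the CDS and 104 in the 5′ UTR) and 1294 in FH-DHX36 (580 in the CDS, 448 in 2 clusters of the 5′ UTR and 266 in other annotation). By RPM it was 4.07-fold higher in FH-DHX36 (3.77 to 4.40), and 11.0-fold higher over exonic reads. POLD2 had no 3′ UTR cluster in either PAR-CLIP, and that region measures 105 nt. It was also the most abundant of the bound replication mRNAs, at 190, so that its NXPM was low in both, at 0.774 and 3.15.

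POLD3, another accessory subunit, presented the opposite case. It had 1387 reads in FH-DHX36-E335A, with 1018 in 6 clusters of the 3′ UTR, 193 in introns, 111 in the CDS and 65 in other annotation, and no cluster in FH-DHX36. Its recovered abundance was 2.51, and its NXPM of 63.2 was the highest of the set in FH-DHX36-E335A. An exon of POLD3 overlaps LIPT2-AS1 on the same strand.

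For DNA polymerase alpha and primase, POLA1 had 267 reads in FH-DHX36-E335A alone, with 115 in the CDS, 85 in introns and 67 in the 3′ UTR. POLA2 had 315 and 99 reads, with 193 and 80 in the 3′ UTR. An exon of POLA2 overlaps another protein-coding gene on the same strand. PRIM1 had 47 reads in 1 cluster of other annotation and PRIM2 had 202 reads, both in FH-DHX36-E335A alone. PRIM2 shares exons with the pseudogene PRIM2BP on the same strand, and PRIM1 with NACA, so these counts are uncertain. Of the epsilon subunits, POLE3 had 631 reads in FH-DHX36-E335A, with 357 in the 3′ UTR, 113 in other annotation, 98 in an intron and 63 in the CDS. In FH-DHX36 it had 138, with 81 in the 3′ UTR and 57 in an intron. POLE2 had 110 and 21 reads, all in the CDS.

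The sliding clamp PCNA was similar in both cell lines, with 2442 reads in FH-DHX36-E335A and 549 in FH-DHX36 (RPM of 279 and 254). In FH-DHX36-E335A 1321 lay in other annotation, 651 in the 3′ UTR and 470 in the CDS, and in FH-DHX36 302 lay in the CDS, 222 in other annotation and 25 in the 3′ UTR. PCNA was among the most abundant mRNAs of the set, at 187, and its NXPM was 1.50 and 1.36.

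RFC3, a small subunit of the clamp loader, stood apart from the other loader subunits. It had 10283 reads in FH-DHX36-E335A, of which 8890 lay in 2 clusters of other annotation, 518 in 7 clusters of the 3′ UTR, 502 in 7 of the CDS, 358 in 6 of introns and 15 in the 5′ UTR. FH-DHX36 gave 3657 reads, of which 3474 lay in 1 cluster of other annotation, 105 in introns, 45 in the 3′ UTR and 33 in the CDS. Most reads on RFC3 were thus held by 1 or 2 clusters in both PAR-CLIPs. Over all reads RFC3 was 1.44-fold higher in FH-DHX36 (1.39 to 1.50), and over the 1035 and 78 exonic reads it was 3.31-fold higher in FH-DHX36-E335A. The table does not hold the position of a cluster, and RFC3 has a named pseudogene. The annotation also places the microRNA gene AL161891.1 and a long noncoding RNA gene on the same strand, within or beside RFC3 introns.

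RFC5, another small subunit, had the largest difference toward FH-DHX36-E335A of any member. It had 1935 reads there, with 1657 in 3 clusters of the 3′ UTR, 95 in an intron, 79 in the 5′ UTR, 75 in other annotation and 29 in the CDS. In FH-DHX36 it had 16 reads in 1 cluster of the 3′ UTR. The difference in RPM was 29.9-fold (18.3 to 52.3), or 4.90 on the log2 scale, and 27.5-fold over exonic reads. The 956 nt 3′ UTR holds the single match printed above.

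RFC1, the large subunit, had 580 reads in FH-DHX36-E335A, 548 in the 3′ UTR and 32 in the CDS, and 24 in FH-DHX36, all in the 3′ UTR. This was a 5.97-fold difference (3.97 to 9.39). RFC4 had 475 reads, with 282 in other annotation and 193 in the CDS, against 32 in other annotation, or 3.66-fold (2.56 to 5.42). Of the 4 bound loader subunits, RFC1, RFC4 and RFC5 were thus higher in FH-DHX36-E335A, and RFC3 was under 2-fold.

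Replication protein A was bound in full in FH-DHX36-E335A, against 48.1% of genes with a canonical coding transcript. Its 3′ UTRs held 81.9% of 2706 reads. RPA2 carried most of them, with 2051 reads, of which 1787 lay in 4 clusters of the 3′ UTR, 165 in the CDS, 59 in other annotation and 40 in the 5′ UTR. In FH-DHX36 RPA2 had 181 reads, all in the 3′ UTR, a 2.80-fold difference (2.40 to 3.27). RPA1 had 370 reads and RPA3 had 285, of which 202 and 228 lay in the 3′ UTR, and neither had a cluster in FH-DHX36.

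FEN1, the flap endonuclease that trims lagging-strand primers, had the most reads of the set in FH-DHX36-E335A. Of its 10543 reads, 10009 lay in 6 clusters of the 3′ UTR, 156 in the 5′ UTR and 378 in the CDS, which ranked FEN1 at 81 of all genes by reads. In FH-DHX36 it held 588 reads, 524 in 4 clusters of the 3′ UTR and 64 in the CDS. The 3′ UTR thus held most FEN1 reads in both cell lines while the amount differed, with an RPM of 1205 against 272, or 4.43-fold (4.07 to 4.82). Per kb of its 734 nt 3′ UTR, FEN1 had 13636 reads in FH-DHX36-E335A. Next were CDT1 (3182), RPA2 (2797), PCNA (1973), MCM3 (1909) and RFC5 (1733). The 3 FEN1 matches printed above lie in its 3′ UTR, the last pair close together. An exon of FADS2 overlaps FEN1 on the same strand, and FEN1 has a named pseudogene.

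LIG1, the ligase of the same step, had 660 reads in FH-DHX36-E335A in 1 cluster of other annotation. In FH-DHX36 it had 106 reads, 69 in the 3′ UTR and 37 in the CDS. No LIG1 read was thus placed in the same class in both.

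Both ribonucleotide reductase genes of the set were higher in FH-DHX36-E335A. RRM2 had 2060 reads, with 1091 in 8 clusters of the 3′ UTR, 688 in other annotation and 281 in the CDS, against 217 in FH-DHX36, with 152 in other annotation and 65 in the CDS. That was 2.34-fold (2.04 to 2.71). RRM1 had 903 reads, with 405 in the 3′ UTR, 407 in the CDS, 58 in the 5′ UTR and 33 in other annotation, against 42 with 25 in the 3′ UTR and 17 in the 5′ UTR, or 5.31-fold (3.89 to 7.42).

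**Figure D2:**
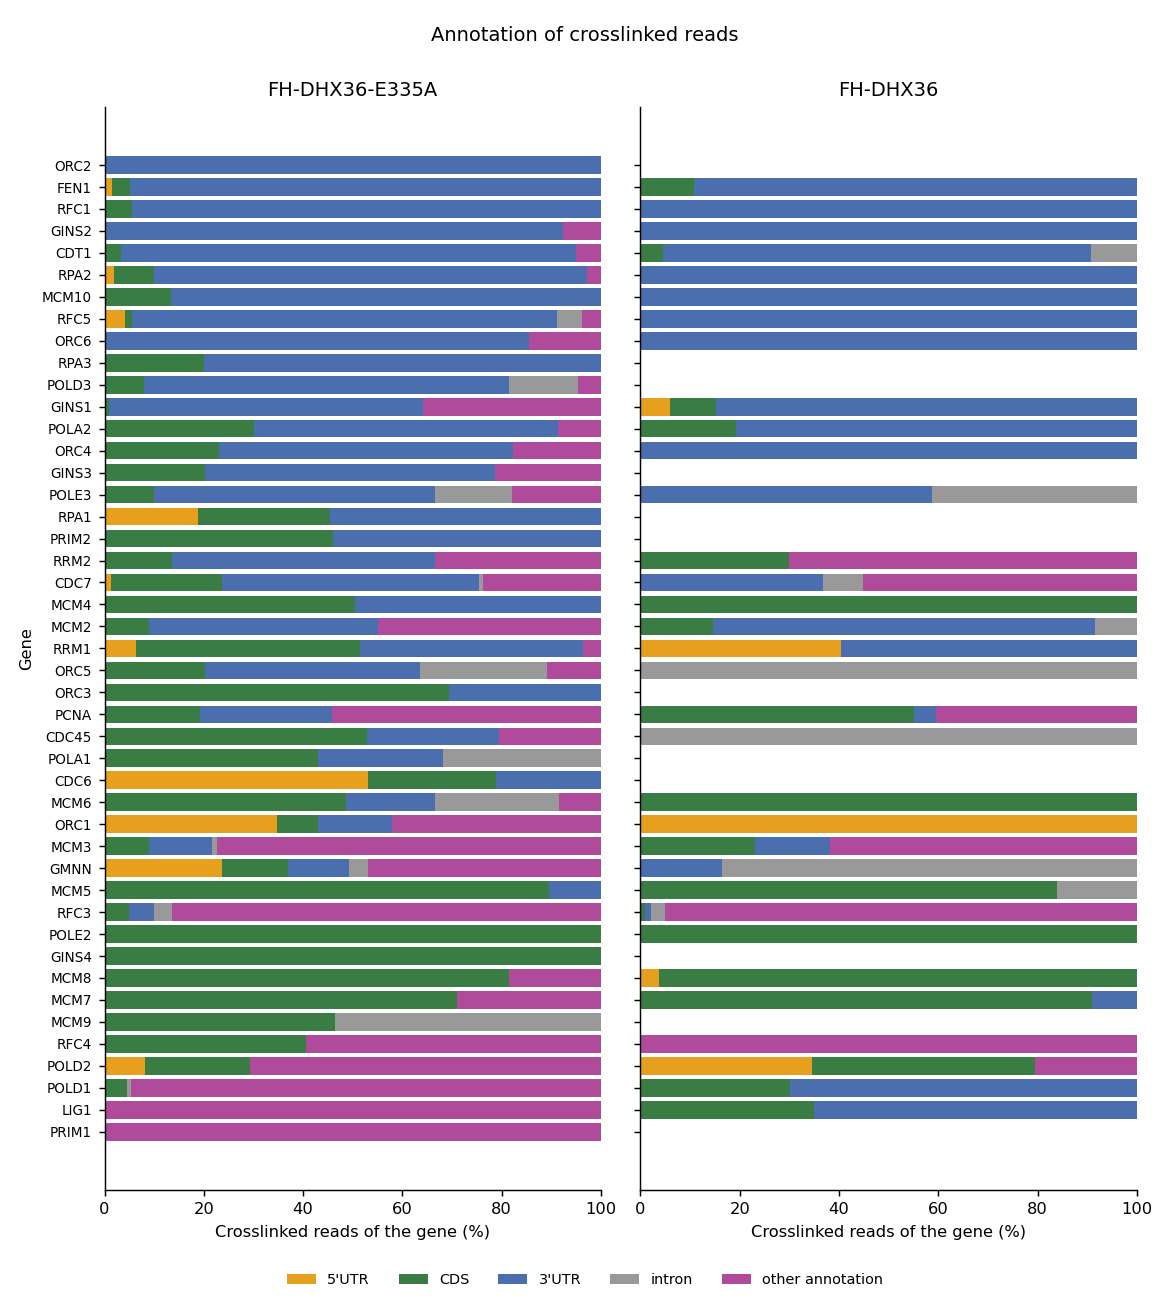
Share of each gene's crosslinked reads (%) by annotation for the 45 genes with a cluster, with FH-DHX36-E335A at the left and FH-DHX36 at the right. Bars are absent where no cluster was listed, and genes are ordered by their 3′ UTR share in FH-DHX36-E335A. FEN1, CDT1 and RPA2 are mostly 3′ UTR in both, MCM5 and POLE2 mostly CDS, and RFC3 and MCM3 mostly other annotation.

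Taking the set as a whole, more genes were higher in FH-DHX36-E335A than in FH-DHX36. Of the 33 genes bound in both, 14 had at least 2-fold higher RPM in FH-DHX36-E335A, against 28.6% of all genes bound in both. These were ORC1, ORC4, ORC6, MCM3, MCM6, CDC7, POLD1, RFC1, RFC4, RFC5, RPA2, FEN1, RRM1 and RRM2. At least 2-fold higher in FH-DHX36 were 2, MCM5 and POLD2, against 24.8%. The other 17 lay within 2-fold. The counting interval stayed beyond 2-fold for 12 of the 14, all but ORC1 and ORC6, and for both of the 2. Scaled to exonic reads alone, 29 genes could be compared, and the split became 11 against 5, with POLD1, GINS1 and MCM8 added to MCM5 and POLD2. On the FH-DHX36-E335A side, GMNN (2.93-fold) and RFC3 (3.31-fold) were gained. ORC1, ORC6 and MCM3 fell under 2-fold, POLD1 turned, and RFC4 could not be compared because it had no exonic read in FH-DHX36. Restricted to the 19 genes with at least 100 reads in both, it was 5 against 2. Shares of all genes were not computed for the exonic scale or for this restriction, so these splits have no background beside them.

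The median log2 difference was 0.54 for the 33 genes, where the median of all genes bound in both was 0.12. Over exonic reads alone, the medians were 0.54 for 29 members and 0.08 for all genes. With at least 100 reads in both, the median of 19 members was 0.13. That filter drops genes with few FH-DHX36 reads, and the median of all genes under it was not computed. Of the 14 genes higher in FH-DHX36-E335A, 7 had few FH-DHX36 reads, from 15 to 42 for ORC1, ORC4, MCM6, RFC1, RFC4, RFC5 and RRM1. The part of read depth in this was not tested.

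**Figure D3:**
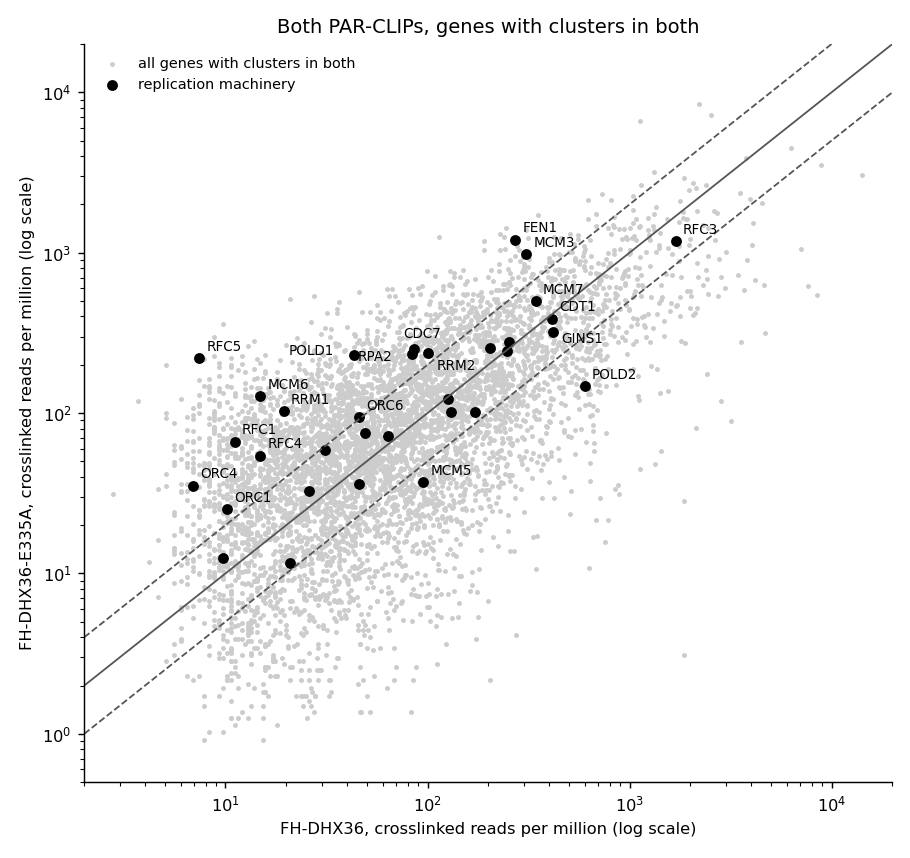
RPM in FH-DHX36 and FH-DHX36-E335A (log axes) for genes with clusters in both, with replication genes as black points and all others in grey. The solid line marks equal values and the dashed lines a 2-fold difference. RFC5 lies farthest above the lines at 29.9-fold and POLD2 farthest below at 4.07-fold.

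Other genes of DNA replication were listed by function, with earlier results of these data known. The list held 32 genes, among them POLE, the thymidylate synthase gene TYMS, topoisomerase genes, chromatin assembly factors and regulators of firing. All 32 had a cluster in FH-DHX36-E335A, against 34.5% of all genes and 48.1% of genes with a canonical coding transcript. In FH-DHX36, 21 had one, against 22.4% and 31.3%, with a background that again includes genes that may not be expressed. Of these 21, 5 were at least 2-fold higher in FH-DHX36-E335A (TYMS, TOP2A, RRM2B, MCMBP and DONSON), against 28.6% of all genes bound in both. At least 2-fold higher in FH-DHX36 were 6 (POLE, TICRR, CHTF8, CHTF18, RNASEH2B and RNASEH2C), against 24.8%. The direction was divided in this list, with both counts near the shares of all genes. TYMS had 3419 and 381 reads, and CHTF8, which encodes a part of an alternative clamp loader, had 4046 and 3680. POLE itself had 168 and 117 reads, so that the catalytic subunits POLE and POLD1 differed in opposite directions over all reads. The POLD1 direction turned with exonic scaling.

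Relative to mRNA abundance, replication mRNAs had medians at or under those of all bound genes. The median NXPM was 4.93 in FH-DHX36-E335A (range 0.234 to 63.2), where all bound genes had a median of 5.66, and 2.96 in FH-DHX36 (0.330 to 51.1), where all had 7.84. Per kb of canonical transcript, which allows genes to be set side by side, the median NXPM was 1.57 against 1.59 for all genes in FH-DHX36-E335A and 1.17 against 2.03 in FH-DHX36. No member exceeded an NXPM of 100, against 5.18% of bound genes in FH-DHX36-E335A and 6.78% in FH-DHX36. The median recovered abundance of members bound in FH-DHX36 was 20.9, next to 7.30 for all genes bound there.

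A few members did stand high. NXPM of at least 25 was reached in FH-DHX36-E335A by CDC7, FEN1, POLD3 and RFC3, 4 of 45 against 20.3% of bound genes, and in FH-DHX36 by GINS1, MCM8 and RFC3, 3 of 33 against 24.6%. On the scale of NXPM per kb, FEN1 (28.4), POLD3 (16.7) and RFC3 (15.4) belonged to the upper 10% of bound genes in FH-DHX36-E335A, and RFC3 (22.2) did in FH-DHX36. The next members were CDC7 at 9.22 in FH-DHX36-E335A and GINS1 at 9.33 in FH-DHX36. At the low end in FH-DHX36-E335A were PRIM1 at 0.164 and GINS4 at 0.184.

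**Figure D4:**
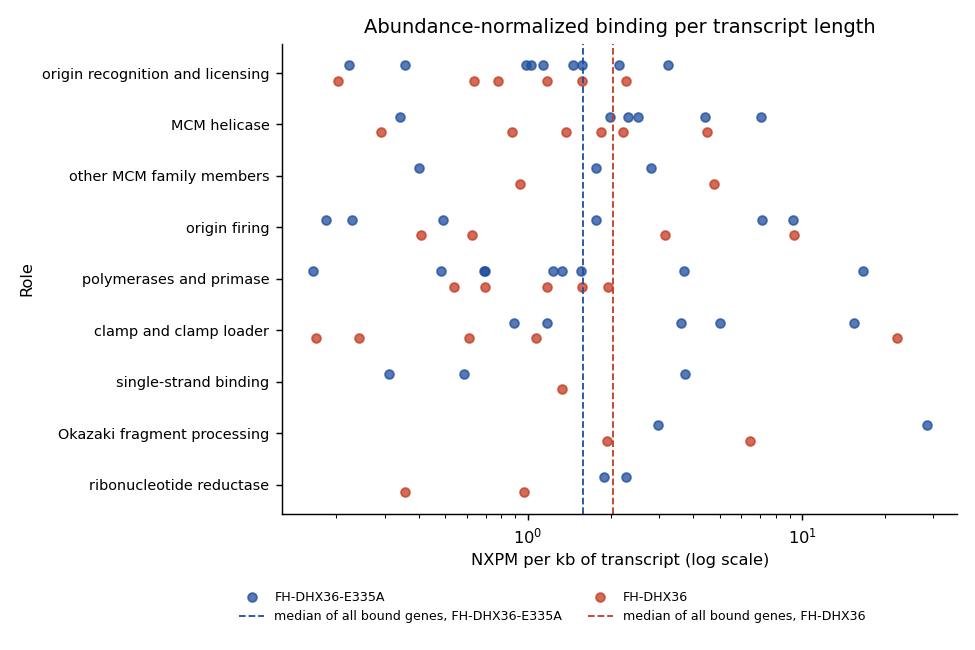
NXPM per kb of canonical transcript (log axis) for each bound gene by role, blue for FH-DHX36-E335A and red for FH-DHX36. Dashed lines are the medians of all bound genes, 1.59 and 2.03. FEN1 at 28.4 and RFC3 at 22.2 are the highest points of their PAR-CLIP.

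By annotation, exonic clusters of the set were divided almost evenly between CDS and 3′ UTR. In FH-DHX36-E335A there were 139 clusters in the CDS, 135 in the 3′ UTR and 17 in the 5′ UTR, so that the 3′ UTR held 46.4% of exonic clusters (40.7 to 52.1), against 59.2% for all genes. In FH-DHX36 there were 38, 42 and 6, with 48.8% in the 3′ UTR (38.6 to 59.2) against 51.5%. The bound members have a median 3′ UTR of 980 nt, shorter than the 1552 nt of all bound genes in FH-DHX36-E335A. Relative to the length of each region, the members' 3′ UTR share was 1.18 times the expected share in FH-DHX36-E335A (1.03 to 1.32) and 1.29 times in FH-DHX36 (1.02 to 1.57), while all genes gave 1.14 and 0.992. In FH-DHX36-E335A the 3′ UTR value for all genes lay within the members' interval. For the CDS the ratios were 0.859 and 0.763, where all genes gave 0.828 and 0.885. For the 5′ UTR they were 1.18 and 1.62, where all genes gave 1.04 and 2.14.

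**Figure D5:**
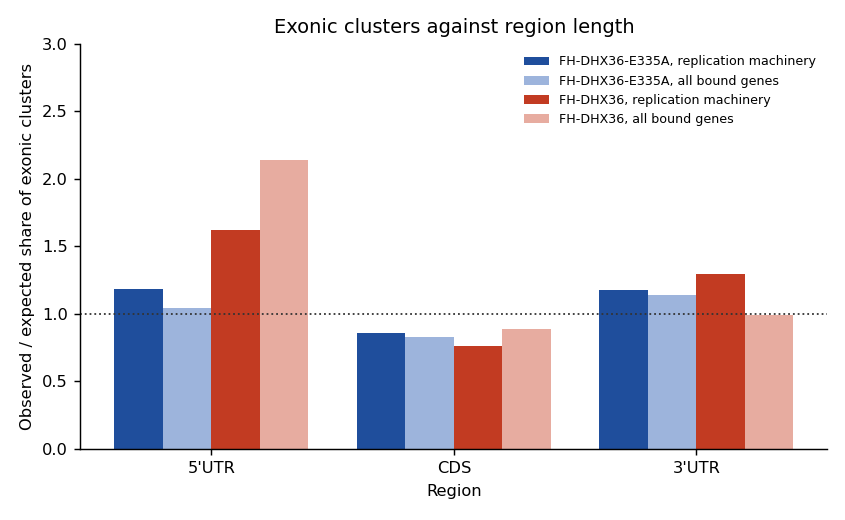
Observed over expected share of exonic clusters in 5′ UTR, CDS and 3′ UTR, where the expected share is that region's part of summed transcript length. Dark bars are the replication genes, pale bars all bound genes, and the dotted line marks 1. In the 3′ UTR the replication genes reach 1.18 and 1.29, and in the CDS 0.859 and 0.763.

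Counted by reads, the cell lines differed more. The 3′ UTR held 71.3% of the members' exonic reads in FH-DHX36-E335A (70.9 to 71.8) and 50.6% in FH-DHX36 (49.5 to 51.7), near the 71.9% and 51.4% of all genes. Without FEN1 the FH-DHX36-E335A share was 63.9%. More than 50% of reads lay in the 3′ UTR for 20 of 45 members in FH-DHX36-E335A, against 49.4% of bound genes, and for 16 of 33 in FH-DHX36, against 35.9%. Most reads lay in the CDS for 8 members in FH-DHX36-E335A, against 17.1%, and for 7 in FH-DHX36, against 27.5%, with MCM4, MCM5, MCM7, MCM8 and POLE2 on both lists.

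Clusters lay in the 5′ UTR of 12 of 45 members in FH-DHX36-E335A, against 20.4% of bound genes, and of 5 of 33 in FH-DHX36, against 18.6%. Introns held a cluster in 12 members, against 23.9%, and in 9, against 24.3%. At least 10 clusters were found on 13 members in FH-DHX36-E335A, against 22% of bound genes, with RFC3 highest at 23 and GINS1 next at 21. In FH-DHX36, GINS1 and MCM7 reached 10, against 3.59%.

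Other annotation held 37.2% of the members' reads in FH-DHX36-E335A (36.8 to 37.5), above the 21.4% of all genes, and 36.2% in FH-DHX36 (35.3 to 36.99), above 16.7%. This excess rested on RFC3 and MCM3, which held 15506 of 26812 such reads in FH-DHX36-E335A and 3884 of 4658 in FH-DHX36. Without them the shares were 21.2% and 9.04%. Most reads lay in other annotation for 8 members in FH-DHX36-E335A, against 12.6% of bound genes, and for 5 in FH-DHX36, against 10.4%.

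Guanine-run matches occurred in these mRNAs at shares near or below those of all genes in the 3′ UTR. The 3′ UTR held at least 1 match in 30 of 48 members, against 65.3% of genes with a 3′ UTR, and a match with 3 or more guanines per run in 4, against 14.5%. In the CDS, 42 of 48 had a match, against 84.9%. Among the bound members in FH-DHX36-E335A, the median of 3′ UTR reads per kb was 327 for the 28 with a 3′ UTR match and 93.8 for the 17 without, and over all genes it was 82.3 and 47.6. The 28 members also had longer 3′ UTRs, with a median of 1399 nt against 300 nt, and the part of length in the difference was not tested.

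Single genes departed from that pattern in both directions. RFC2 and POLD4 hold 6 and 5 matches in their 3′ UTRs and had no cluster. CDC7 and PCNA have no match in the 3′ UTR and yet 1136 and 651 FH-DHX36-E335A reads there. The strict matches of ORC4 and POLA2 lie in 3′ UTRs with 183 and 193 reads. A match describes the reference sequence only. It was not compared with the place of a cluster, since the table gives no cluster positions.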

How the data were processed

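PAR-CLIP libraries were made from 2 biological replicates per cell line and reads were demultiplexed with bcl2fastq 2.17.1, per the labels. According to the methods, the authors mapped reads to hg19 and called and annotated clusters with PARalyzer in PARpipe, using GENCODE 19. Their versions are not given in the sources used here. In all, 1 table was deposited by the authors, with 30 columns of values, in which replicates are already combined. It holds counts of clusters and crosslinked read counts, without normalization, and NXPM, a score deposited by the authors as scaled reads over abundance. The values follow abundance plus a constant of 0.001, from which abundance was recovered for genes with a cluster. In this table reads are listed only where there is a cluster.

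RPM was computed on all crosslinked reads of each PAR-CLIP. Transcript and region lengths and guanine-run matches came from canonical transcripts of GENCODE 44 on GRCh37, the build of hg19 with a later annotation. Of the guanine-run matches, 1 is not reported here. All 48 genes were matched, as were 17932 genes of the table. Expected regional shares are shares of summed length. Shares carry 95% Wilson intervals and read ratios 95% exact binomial intervals. Both cover counting error only. They treat each read as independent, which PCR copies are not, so they can be too narrow. Scripts were tested on simulated data. Python 3.11.15, pandas 2.3.3, numpy 2.4.6, scipy 1.17.1 and matplotlib 3.10.9 were used.

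The genes, the lists and the settings were chosen with earlier results of these data known. Every gene is named at least once. Regional values are given for genes with at least 1000 reads in FH-DHX36-E335A or 100 in FH-DHX36, for those 2-fold apart, and for those with most reads outside the 3′ UTR. Of the genes, 10 have named pseudogenes and 9 overlap an exon of another gene on the same strand, so reads could have been split between copies. No test was run, since each gene has 1 value in each cell line.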

Additional observations from a re-analysis of the deposited data

How the results depend on the processing

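No paired analysis was possible because the table has no replicate columns, and for the same reason leaving out a replicate was not run. Of 35 alternative values, 15 stayed within the interval of the reported value, or within 1.5 times for a count. For the median NXPM, that interval reflects the spread across member genes and is not a counting interval. The 35 also include the median RPM and the median NXPM per kb. These are on other scales than NXPM and could not be judged by its interval, so the tally does not measure robustness. Genes with at least 100 reads numbered 19 in FH-DHX36 in place of 33. The share of crosslinked reads over exonic reads alone was 0.677% in FH-DHX36-E335A and 0.468% in FH-DHX36, and without the member with the most reads 0.703% and 0.427%. In place of median NXPM, the median RPM was 75.4 and 83.8, on another scale. The median NXPM per kb, added after the data were seen and also on another scale, was 1.57 and 1.17. By reads, the 3′ UTR share of exonic binding in FH-DHX36-E335A was 71.3%, and 63.9% without FEN1, a setting also added afterwards. Genes higher in FH-DHX36-E335A numbered 9 at a fold of 3 and 5 with at least 100 reads in both. Those higher in FH-DHX36 numbered 1 at a fold of 3 and 5 over exonic reads. Shares of all genes under these settings were not computed. Matches of at least 3 guanines per run were in 4 3′ UTRs. The share of reads in other annotation without RFC3 and MCM3, likewise added, was 21.2% and 9.04%. The 3′ UTR share of reads on origin genes without CDT1, also added afterwards, was 46.5% and 34.2%. The smaller total of FH-DHX36 limits what can be said of genes with few reads there.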
